A study of Mus musculus with 15 samples.

Results

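Testes that received lentivirus against the M5 muscarinic acetylcholine receptor (M5) were compared with control testes (Con) by RNA sequencing. The comparison used 6 of the 15 libraries of the series, 3 of M5 and 3 of Con, and was run over the 14514 of 23510 listed genes whose mean level over the 15 libraries was at least 1 FPKM, that is, fragments mapped to a gene relative to its length and to the total of the library. All mice were of the ICR stock. Per the study's methods, males of 5 weeks received the virus in the testis and the tissue was taken 10 days later. The M5 virus was a mixture of 3 short hairpin RNA (shRNA) vectors aimed at 1 gene, so the label "M5 knockdown" describes a treatment of the whole organ, in which the infected cells were not separated from the others. Con carries only the labels "Con" and "control", and nothing in the labels or the methods says whether these testes were injected. Virus, shRNA and possibly the injection therefore separate M5 from Con together, and their effects cannot be told apart in this comparison. A vector control for the lentivirus (MNC, 3 libraries) was sequenced as well, and its values or counts of calls are given beside most results for M5.

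The M5 receptor, encoded by Chrm5, is 1 of 5 muscarinic receptors for acetylcholine. Together with M1 and M3 it couples to Gq proteins, which activate phospholipase C and release calcium from internal stores, whereas M2 and M4 couple to Gi proteins and lower cyclic AMP. In the seminiferous tubules, germ cells develop from spermatogonia through meiotic spermatocytes to round and then elongating spermatids, which replace histones by transition proteins and protamines. Sertoli cells surround them and form the blood-testis barrier, and Leydig cells, macrophages and vessels lie between the tubules. Viral nucleic acid and cytokines such as interferon gamma switch on a common set of interferon response genes in most cell types, among them GTPases that act on intracellular microbes and the machinery of antigen presentation.

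Of the genes tested, 3143 (21.7%) were called at an adjusted p under 0.05 by limma, 1352 (9.32%) higher and 1791 (12.3%) lower in M5. Most differences were small. The median size among the called genes was 0.44 on the log2(FPKM + 1) scale, and 314 called genes differed by 1 or more, 253 of them higher and 61 lower. The median difference of all genes tested was -0.04, and the values of M5 and Con did not overlap in 42.2% of the genes. Libraries of Con correlated across genes at r of 0.987 to 0.993 and libraries of M5 at 0.971 to 0.987, the lowest value lying between M5 replicates 1 and 3. The number of called genes depended on single libraries. It was 708 without Con replicate 1, 1571 without Con replicate 2, 1716 without Con replicate 3, 2048 without M5 replicate 1, 1220 without M5 replicate 2 and 5263 without M5 replicate 3. Of the 111 called genes named by rule, 56 stayed called without any 1 library. The balance of directions depended on the scaling: 43.0% of the calls were higher in M5 as measured, and 57.6% of 2107 calls were higher after each library was centred on its median. Genes called higher had a median GC content of 46.2% and genes called lower one of 52.9%, against 49.4% for all genes tested. The part of GC content in these calls was not tested, and 2728 genes were called after its trend was removed. On the same genes limma called 2967 (20.4%) between MNC and Con, 1166 (8.03%) higher and 1801 (12.4%) lower, and 820 (5.65%) between M5 and MNC, 400 (2.76%) higher and 420 (2.89%) lower in M5. The first of these shares its Con libraries with the comparison of M5 and Con and the second its M5 libraries, so their values are given side by side without a test of likeness.

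The targeted gene was examined first. Chrm5 stood at 0.21, 0.19 and 0.21 FPKM in Con and at 0.37, 0.22 and 0.37 FPKM in M5. Every M5 value lay above every Con value, although M5 replicate 2 exceeded the highest Con value by very little. The log2 difference was 0.13, with 0.32 ± 0.087 FPKM in M5 and 0.203 ± 0.012 in Con (SD, n = 3 each; exact permutation test, two-sided, p = 0.1, the smallest value that 3 against 3 libraries allow). MNC stood at 0.43, 0.23 and 0.43 FPKM, overlapping M5 (log2 difference of M5 from MNC -0.04, exact permutation p = 0.5, n = 3 each). No decrease of the targeted transcript was detectable in M5 against either control. At this level the transcript does not check the group label, and the receptor protein was not measured here.

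Of the other muscarinic receptors, which pair with different G proteins, only Chrm4 passed the filter of 1 FPKM. Chrm4, the Gi-coupled M4 receptor, was at 2.91, 2.75 and 3.09 FPKM in Con and at 2.24, 2.05 and 2.29 FPKM in M5. The groups did not overlap, and the difference of -0.29 missed the threshold (limma, adjusted p = 0.0693). In MNC it was higher, at 4.45, 5.01 and 5.10 FPKM, and there the difference of M5 from MNC passed (log2 difference -0.87, limma adjusted p = 0.0153). Chrm1 was at 0.13 FPKM on average in both M5 and Con, Chrm3 at 0.05 and 0.043 FPKM, and Chrm2 at or below 0.02 FPKM in each of the 6 libraries. The acetylcholine enzyme and transporter genes Chat, Ache, Slc18a3 and Slc5a7 averaged at most 0.413 FPKM in Con and 0.347 FPKM in M5. The list of muscarinic and acetylcholine genes had 4 genes tested. Crat stood on it, although its product, carnitine acetyltransferase, acts on carnitine and not on choline. It fell from 463, 461 and 455 FPKM in Con to 295, 364 and 330 FPKM in M5 (log2 difference -0.48, SE 0.084, limma adjusted p = 0.0121). Chrnb4, a nicotinic receptor subunit, fell as well, from 36.8, 53.5 and 30.4 to 22.9, 24.7 and 22.3 FPKM (log2 difference -0.72, limma adjusted p = 0.0391), and was at 23.2 to 24.5 FPKM in MNC. After centring on the median neither gene was called.

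Few genes of the signalling steps downstream of Gq-coupled receptors were called. Of 28 genes for Gq subunits, phospholipases C, calcium channels, kinases and regulators that were tested, 2 (7.14%, against 21.7% of all genes) were called, both higher, with a median difference of -0.04, the same as that of all genes. With the GC trend removed 1 was called higher and 3 lower, and between 0 and 8 were called when 1 library was left out, the 0 without Con replicate 1 or M5 replicate 2 and the 8 without M5 replicate 3. Between MNC and Con 2 were higher and 4 lower. These were Rgs22, a testis regulator of G protein signalling (90.8, 76.8 and 94.6 FPKM in Con, 114, 119 and 122 in M5; log2 difference 0.44, limma adjusted p = 0.0166), and Camk4, a calcium and calmodulin-dependent kinase of spermatids (28.6, 24.0 and 27.0 FPKM in Con, 36.0, 30.7 and 33.1 in M5; log2 difference 0.32, limma adjusted p = 0.0464). The call of Camk4 was lost without any 1 of the 6 libraries.

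Genes of the immune system were higher in M5 than in Con in most of the lists examined. In bulk tissue, more or fewer cells of a type and more or less RNA per cell cannot be told apart, here or in the cell type lists that follow. Of 35 interferon response genes tested, 24 (68.6%, against 21.7% of all genes) were called, all higher in M5. A positive difference was seen in 33 of the 35, and the median of the list was 1.07 against -0.04 for all genes tested. Iigp1, an interferon-inducible GTPase, was at 1.34, 1.04 and 1.06 FPKM in Con and at 12.9, 26.2 and 66.9 FPKM in M5. All M5 libraries lay well above Con, and replicate 3 was the highest (30.8-fold ratio of means, log2 difference 3.78, SE 0.522, limma adjusted p = 0.00702). Gbp2, a guanylate-binding protein, rose from 0.97, 0.79 and 0.70 to 4.89, 11.2 and 26.7 FPKM (log2 difference 2.79, adjusted p = 0.0138). Gbp6, of the same family, rose by 2.49 (adjusted p = 0.01), and Irgm1, another interferon-inducible GTPase, rose from 1.47, 1.55 and 1.80 to 5.54, 12.6 and 30.3 FPKM (log2 difference 2.43, adjusted p = 0.0212). Guanylate-binding proteins have close relatives in the mouse genome, and reads could be divided among them. Transcription factors of the response rose with them, with differences of 0.88 for Stat2 and 1.69 for Irf7. Irf9, with 0.61, and Usp18, with 0.72, did not pass. In Iigp1, Gbp2 and Irgm1 alike, M5 replicate 1 was the lowest and replicate 3 the highest of the M5 libraries.

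The summed level of the interferon response genes was 126 to 140 FPKM in the Con libraries and 202, 300 and 503 FPKM in M5 replicates 1, 2 and 3, so each M5 library stood above every Con library. The number of members called varied with the libraries used. It was 4 without Con replicate 1, 10 without Con replicate 2 or Con replicate 3, 8 without M5 replicate 2, 28 without M5 replicate 1 and 25 without M5 replicate 3, while the median stayed between 0.86 and 1.35. In MNC the summed level was 207 to 309 FPKM, and 22 of the 35 genes were called higher than in Con with a median of 0.89. Between M5 and MNC limma called 0 of the 35, with 1 at an unadjusted p under 0.05, and the median difference was 0.18. Of the 21 genes that sense viral nucleic acid and relay the signal, 3 were called higher and 1 lower, a share below the 21.7% of all genes, with a median of 0.07. None of the 21 was called by limma without Con replicate 1, 2 or 3 or M5 replicate 2, and 9 were called without M5 replicate 3. Irf1, a transcription factor induced by interferon gamma, rose from 2.23, 2.39 and 1.82 to 5.12, 9.23 and 23.4 FPKM (log2 difference 1.88, adjusted p = 0.0327). Irf5 and Sting1 rose by 0.88 and 0.71, and Rela, a subunit of NF-kappa B, fell by 0.38. The interferon gamma transcript Ifng itself was listed at 0 in the 3 Con libraries and averaged 0.35 ± 0.026 FPKM in M5 (SD, n = 3; exact permutation test, two-sided, p = 0.1), and Ifnb1 was at 0.02 FPKM in M5 and listed at 0 in Con.

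Interferon response genes are commonly controlled by the interferon-stimulated response element. Its core, a pair of GAAA stretches separated by 2 bases of any kind, was searched on both strands of the RefSeq promoters (GRCm38.p6) from 250 bases before to 50 bases after the start, and these windows of called genes are shown, with the match in capitals, as examples of promoters that hold it. Matches that overlap one another in a promoter were counted once.
Gbp2, chr3:142620579-142620638, plus strand: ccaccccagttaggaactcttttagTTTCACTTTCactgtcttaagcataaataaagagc
Irgm1, chr11:48871421-48871475, minus strand: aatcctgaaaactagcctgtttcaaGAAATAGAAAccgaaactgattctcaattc
Cxcl10, chr5:92349068-92349127, minus strand: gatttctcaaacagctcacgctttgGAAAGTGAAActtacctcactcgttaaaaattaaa
B2m, chr2:122147523-122147582, plus strand: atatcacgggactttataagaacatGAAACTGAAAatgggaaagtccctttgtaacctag
H2-T23, chr17:36032791-36032850, minus strand: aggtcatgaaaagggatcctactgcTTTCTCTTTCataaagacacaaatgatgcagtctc
In Gbp2 and H2-T23 the match reads on the opposite strand. The match lies 59 bases before the start in Gbp2, 30 in Irgm1, 213 in Cxcl10, 139 in B2m and 124 in H2-T23. Of the interferon response genes tested, 24 had a promoter in the table and 13 of these (54.2%) held the motif, against 3.44% of all 32851 promoters and 3.47% of the 10940 promoters of genes tested. Among the 16 called members with a promoter, 11 (68.8%) held it. It was present in 5 of 18 promoters (27.8%) of class I antigen presentation genes, in 3 of the 9 (33.3%) of called class I genes, in 6 of 37 (16.2%) of cytosolic ribosomal protein genes, in the promoter of Chrm5 itself, and in none of the 20 promoters of round spermatid or the 19 promoters of elongating spermatid genes. A match of these letters is a description of the promoter and not a measured binding site.

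Antigen presentation genes rose as a group. Class I molecules, which display peptides of the cell itself to T cells, are built from a heavy chain and B2m. Of 20 genes of this pathway tested, 11 (55.0%, against 21.7% of all genes) were called, all higher, with a median of 1.00. H2-D1, a class I heavy chain, was at 15.1, 14.8 and 13.5 FPKM in Con and at 81.9, 124 and 130 FPKM in M5. The Con libraries lay close together and each M5 library lay far above them (7.75-fold ratio of means, log2 difference 2.84, SE 0.173, limma adjusted p = 0.000685). B2m, the light chain, was at 53.5, 57.9 and 43.7 FPKM in Con and at 194, 222 and 271 FPKM in M5 (4.42-fold ratio of means, adjusted p = 0.00107). Psmb8, a subunit of the immunoproteasome that cuts the peptides, rose from 0.97, 0.44 and 0.61 to 7.57, 12.3 and 11.6 FPKM (adjusted p = 0.00133), and H2-T23, a nonclassical class I chain, rose from 3.45, 3.91 and 3.63 to 9.55, 19.1 and 27.0 FPKM (adjusted p = 0.011). The peptide transporter gene Tap2 rose by 1.67, whereas the differences of Tap1 (0.19), the chaperone gene Calr (0.06) and Tapbp (-0.18) did not pass. H2-D1 was the 1 gene of the 20 that was also called between M5 and MNC, where it was at 39.5, 38.9 and 32.4 FPKM (log2 difference of M5 from MNC 1.55, limma adjusted p = 0.0153). Class I heavy chain genes are near-identical copies and differ between mouse stocks, so the split of reads among them is uncertain.

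**Figure D1:**
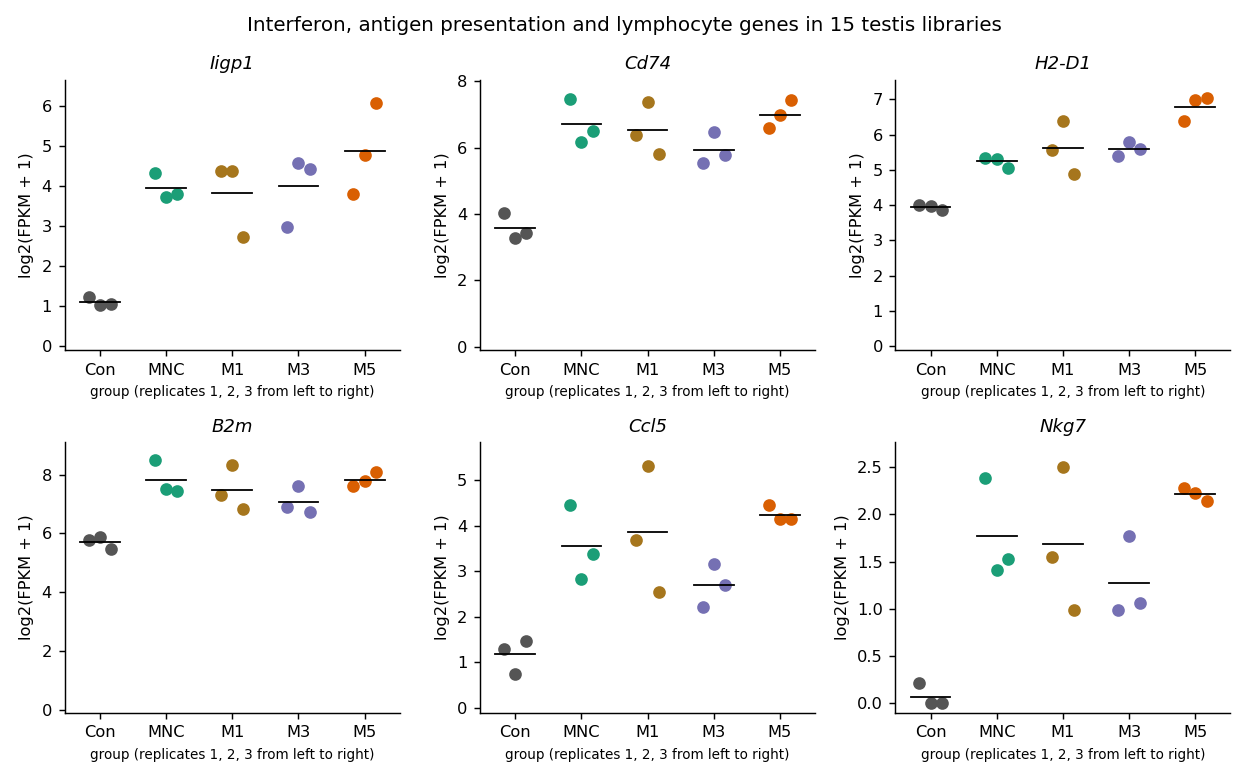
Level of 6 immune genes as log2(FPKM + 1) in the 15 testis libraries, with points for single libraries and a line for the group mean. The 3 M5 libraries lie above the 3 Con libraries in each panel, the MNC libraries also lie above Con, and the M5 points are above the MNC points in the panel of H2-D1.

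Class II molecules present engulfed material and are made by macrophages, dendritic cells and B cells. Of the 7 class II genes tested, 4 (57.1%, against 21.7% of all genes) were called, all higher, and the median of the 7 was 1.94. Cd74, the invariant chain that guides class II assembly, was at 15.4, 8.74 and 9.75 FPKM in Con and at 94.7, 125 and 171 FPKM in M5 (11.6-fold ratio of means, log2 difference 3.42, SE 0.264, adjusted p = 0.00159). The chains H2-Ab1 and H2-Aa rose by 2.85 and 2.60, from 1.89 to 4.62 and from 1.56 to 6.26 FPKM in Con to 20.3 to 29.6 and 17.3 to 28.5 FPKM in M5. Ctss, a protease that degrades the invariant chain, was at 7.77, 7.95 and 7.90 FPKM in Con and at 22.2, 28.6 and 56.1 FPKM in M5 (log2 difference 1.94, adjusted p = 0.0095). Each of the 4 stayed called without any 1 of the 6 libraries. In MNC the same list had 4 genes called higher than in Con and a median of 1.95, and limma called 0 of the 7 between M5 and MNC, also at an unadjusted p under 0.05.

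Genes for secreted inflammatory proteins followed. Of 13 chemokine and cytokine genes tested, 5 (38.5%, against 21.7% of all genes) were called, all higher. All 13 had a positive difference, with a median of 1.40. Ccl5, which attracts T cells, was at 1.47, 0.68 and 1.79 FPKM in Con and at 20.7, 16.7 and 16.6 FPKM in M5 (13.7-fold ratio of means, log2 difference 3.06, SE 0.202, adjusted p = 0.000859). Ccl8, a monocyte chemokine, rose from 3.54, 1.23 and 1.27 to 15.6, 24.1 and 39.7 FPKM (adjusted p = 0.0056). The interferon-induced chemokines Cxcl9 and Cxcl10 were at or below 0.15 FPKM in each Con library and at 2.71, 7.63 and 10.3 FPKM and 1.52, 3.54 and 13.6 FPKM in M5 (adjusted p = 0.00743 and 0.0334). Complement and acute phase genes had 4 of 13 called (30.8%, against 21.7% of all genes), all higher, with a median of 0.98. Saa3, an acute phase apolipoprotein, was at 2.90, 1.10 and 0.09 FPKM in Con and at 18.7, 13.8 and 43.1 FPKM in M5 (log2 difference 3.50, adjusted p = 0.00953). C3, the central complement component, rose from 10.04, 8.16 and 5.0 to 22.7, 31.1 and 67.3 FPKM (adjusted p = 0.0158), Cfb by 2.19 and Serping1, an inhibitor of complement, by 1.35. In MNC 7 of the 13 chemokine and cytokine genes were called higher than in Con with a median of 1.09, and 1 of the 13 complement and acute phase genes with a median of 0.48. With 1 library left out, 3 to 9 of the chemokine and cytokine genes and 2 to 7 of the complement and acute phase genes were called in M5.

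Markers of immune cells were higher in M5 as well. Of 8 T and natural killer cell markers tested, 6 (75.0%, against 21.7% of all genes) were called, all higher, with a median of 1.32. Nkg7, a granule protein of killer cells, was at 0.16 FPKM in Con replicate 1, listed at 0 in Con replicates 2 and 3, and at 3.87, 3.68 and 3.43 FPKM in M5 (log2 difference 2.15, SE 0.11, adjusted p = 0.000356). Gzma and Gzmb, the granzymes, were at most 0.19 FPKM in Con and at 1.81 to 3.39 FPKM in M5. Cd3g, a T cell receptor subunit, was at most 0.04 FPKM in Con and at 3.52, 2.76 and 2.24 FPKM in M5. The summed level of this list was 9.3 to 10.5 FPKM in Con and 28.0 to 29.2 FPKM in M5, so that here the M5 libraries were alike and replicate 3 did not stand out. Between 5 and 7 of the 8 genes were called when 1 library was left out. In MNC 6 of the 8 were called higher than in Con, with a summed level of 17.6 to 30.3 FPKM, and Gzma alone was called between M5 and MNC (log2 difference 0.95, adjusted p = 0.0492). Jchain, the joining chain of secreted antibodies, rose from 0.56, 0.27 and 0.49 to 4.29, 6.11 and 10.6 FPKM (adjusted p = 0.00505).

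The macrophage list had 8 of 14 genes called (57.1%, against 21.7% of all genes), all higher, with a median of 0.91. C1qb and C1qc, complement subunits made by macrophages, rose from 11.02 to 12.1 and 9.69 to 12.0 FPKM in Con to 21.9, 23.6 and 43.7 FPKM and 16.5, 21.8 and 42.9 FPKM in M5 (adjusted p = 0.0183 and 0.0459). Lyz2, the lysozyme of myeloid cells, rose by 1.42 and Tyrobp, a signalling adaptor, by 1.25. The resident macrophage receptor genes Mrc1 and Csf1r had differences of 0.05 and 0.43 that did not pass. The summed level was 320 to 350 FPKM in Con and 502, 545 and 676 FPKM in M5. Limma called 0 of these genes without Con replicate 1 or Con replicate 2, 1 without Con replicate 3 or M5 replicate 2, 8 without M5 replicate 1 and 9 without M5 replicate 3, while 9 had an unadjusted p under 0.05 in the full comparison and the median with 1 library left out was 0.64 to 1.14. In MNC, where the summed level was 452 to 531 FPKM, 3 were called higher than in Con with a median of 0.52.

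**Figure D2:**
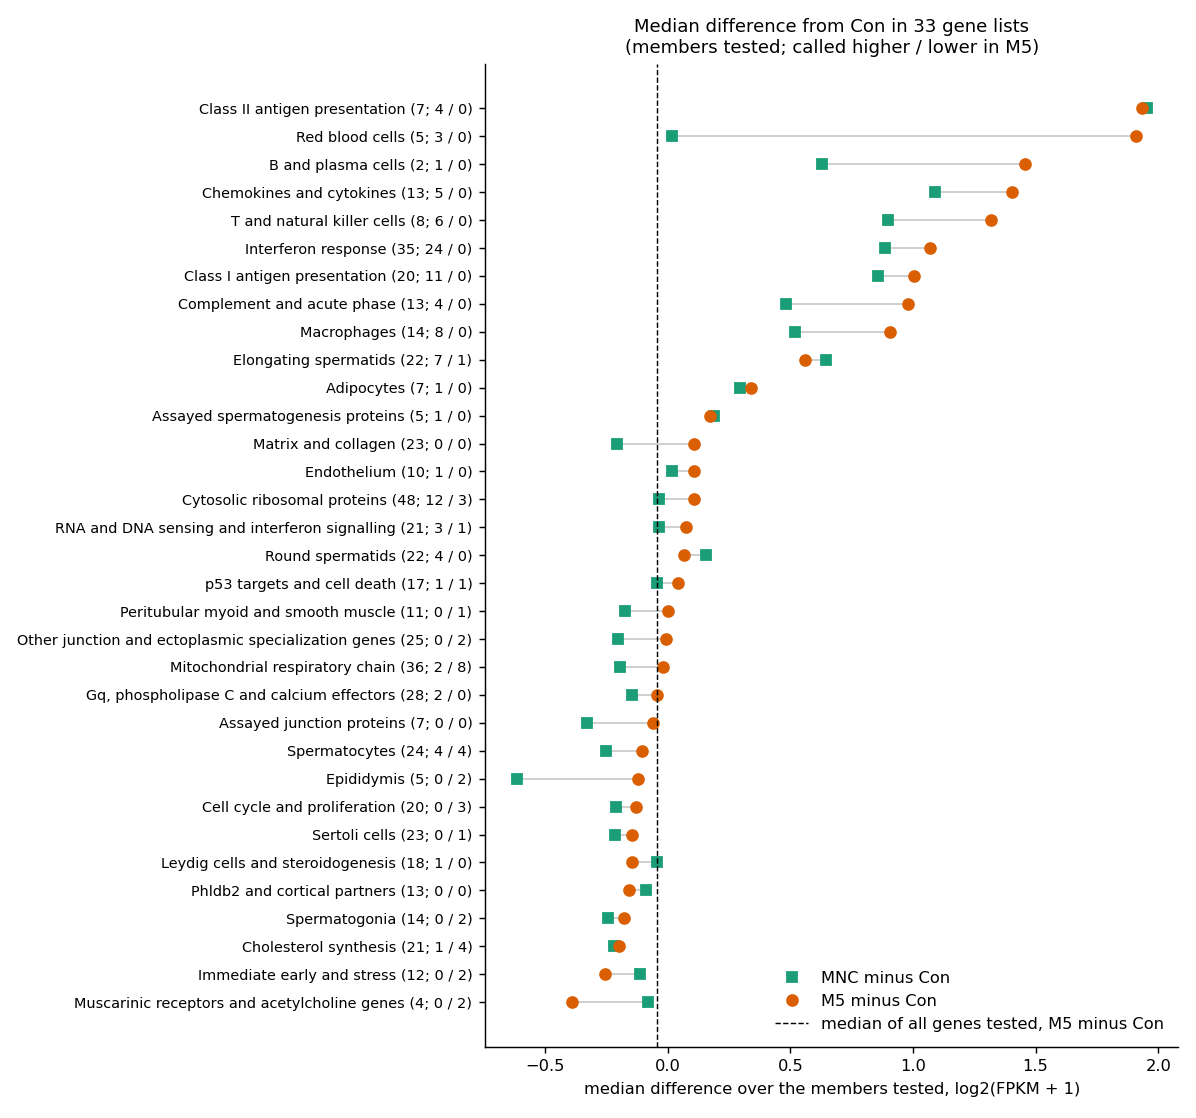
Median difference from Con over the tested members of 33 gene lists, on the log2(FPKM + 1) scale, for M5 (circles) and for MNC (squares), with the number of members tested and the numbers called higher and lower in M5 after each name. The interferon response, antigen presentation, chemokine, complement and immune cell lists lie between 0.91 and 1.94 for M5 and the red blood cell list is at 1.91 for M5 and 0.02 for MNC, while most testis lists lie near the median of all genes.

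Red blood cell genes were higher in M5 than in both controls. Hbb-bs, an adult beta globin, was listed at 0 in Con replicate 1, was at 0.08 and 0.09 FPKM in Con replicates 2 and 3, and was at 58.6, 35.7 and 106 FPKM in M5. In MNC it was at 10.2, 1.53 and 0.49 FPKM. The difference of M5 from Con was 5.87 (SE 0.353, adjusted p = 0.000685) and that of M5 from MNC 4.14 (adjusted p = 0.0366). Hbb-bt, the neighbouring beta globin, was listed at 0 in all Con libraries and was at 11.7, 6.22 and 18.4 FPKM in M5 (adjusted p = 0.00299), and the alpha globin Hba-a2 was at 1.43, 2.17 and 6.94 FPKM in M5 against at most 0.15 in Con (adjusted p = 0.0228). Of the 5 red cell genes tested 3 (60.0%, against 21.7% of all genes) were called, all higher in M5. Between M5 and MNC 3 were called, all higher in M5. The globins of a cluster are near-identical and share reads, so their separate values are uncertain. The summed level of the list was 33.9 to 69.9 FPKM in Con, 148 to 491 FPKM in M5 and 21.9 to 35.5 FPKM in MNC.

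A set of genes differed by presence and absence and not by degree. Fabp3, which encodes the fatty acid-binding protein of heart and muscle (chr4:130308738-130315463 of GRCm38.p6), was at 50.8, 69.3 and 67.8 FPKM in Con. It was at 0.84 FPKM in M5 replicate 1 and listed at 0 in replicates 2 and 3 (log2 difference -5.68, SE 0.261, limma adjusted p = 0.00023). MNC, at 69.0, 46.5 and 52.95 FPKM, resembled Con. Tmem89, a transmembrane protein gene (chr9:108914619-108915563), went from 41.1, 45.1 and 35.8 FPKM in Con to 0 in all 3 M5 libraries (adjusted p = 9.53e-06), with 33.7 to 45.7 FPKM in MNC. The opposite held for the histone gene H2ac23 (chr13:21810367-21810918), which was listed at 0 in each Con and MNC library and at 20.8, 22.7 and 28.7 FPKM in M5 (adjusted p = 3.79e-05). H2A genes are near-identical copies, and reads could be assigned to another member. All 3 genes stayed called in each of the 17 alternative fits.

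The tested neighbours of these genes along the chromosome had much smaller differences. Next to Fabp3, Zcchc17 had a difference of -0.03 (adjusted p = 0.843) on one side, and Serinc2, on the other, was called in the opposite direction (0.63, adjusted p = 0.0356). Snrnp40, beyond Zcchc17, was called lower by 0.37 (adjusted p = 0.0103). On both sides of Tmem89 the differences were -0.22 for Slc26a6 and 0.03 for Uqcrc1, neither of which passed. H2bc22 and Zfp184 beside H2ac23 had differences of 0.25 and -0.05 that did not pass, and Pom121l2, one gene further, was called lower by 0.33 (adjusted p = 0.0331). A pair of adjacent genes on chromosome 11 did move together. Coil, the gene for the Cajal body protein coilin (chr11:88973935-88991613), fell from 53.2, 51.2 and 56.9 to 0.64, 0.58 and 0.23 FPKM (adjusted p = 2.01e-05), and Scpep1, a serine carboxypeptidase (chr11:88924020-88955442) 18.5 kb away, fell from 7.10, 8.25 and 6.37 to 0.17, 0.20 and 0.25 FPKM (adjusted p = 0.000184). Akap1 and Pctp, the next tested genes on either side, had differences of 0.08 and 0.06 that did not pass. MNC was low as well for this pair, at 0.47 to 1.06 FPKM for Coil and 0.28 to 0.44 FPKM for Scpep1, and neither was called between M5 and MNC. Gm21477, on the Y chromosome and a member of a multicopy family, went from 19.7, 5.03 and 6.40 FPKM to 0 in M5 and in MNC.

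Other genes fell strongly with wider spread. Tedc1, a centriole protein gene, fell from 15.6, 9.66 and 15.7 to 1.66, 0.84 and 3.70 FPKM (adjusted p = 0.00865) and was called between M5 and MNC as well. Atp6v1e1, a subunit of the proton pump V-ATPase, fell from 7.45, 9.13 and 7.47 to 3.13, 0 and 0.02 FPKM (adjusted p = 0.0227), and the call held in only 2 of the 6 fits without 1 library. Gm4184 is a pseudogene that fell by 2.55, and Gm10413, a gene in a family of near-identical copies, rose from 1.38 to 2.04 FPKM in Con to 25.6 to 32.2 FPKM in M5. Crisp1, a secreted protein of the epididymis, fell from 32.3, 2.86 and 12.2 FPKM in Con to at most 0.15 FPKM in M5, and AY761185 and the epididymal Spink8 fell by 2.35 and 1.84. The Con libraries thus differed widely among themselves in Crisp1, Con replicate 1 being the highest, and MNC was as low as M5 for Crisp1 (0.03 FPKM in each library). Of the 5 epididymal genes tested 2 (40.0%, against 21.7% of all genes) were called, both lower, with a median of -0.12. At an unadjusted limma p under 0.05, 2 of the 5 were higher and 2 lower. The summed level of the epididymal list was 219, 197 and 246 FPKM in Con and 299, 262 and 211 FPKM in M5. Among genes without a name, BGI_novel_G001237 was listed at 0, 0 and 6.57 FPKM in Con and was at 68.9, 169 and 207 FPKM in M5, BGI_novel_G000367 rose by 4.21, and BGI_novel_G001312 went from 9.89, 39.3 and 18.0 FPKM to 0 in M5, while BGI_novel_G001236 was lower by 5.03.

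**Figure D3:**
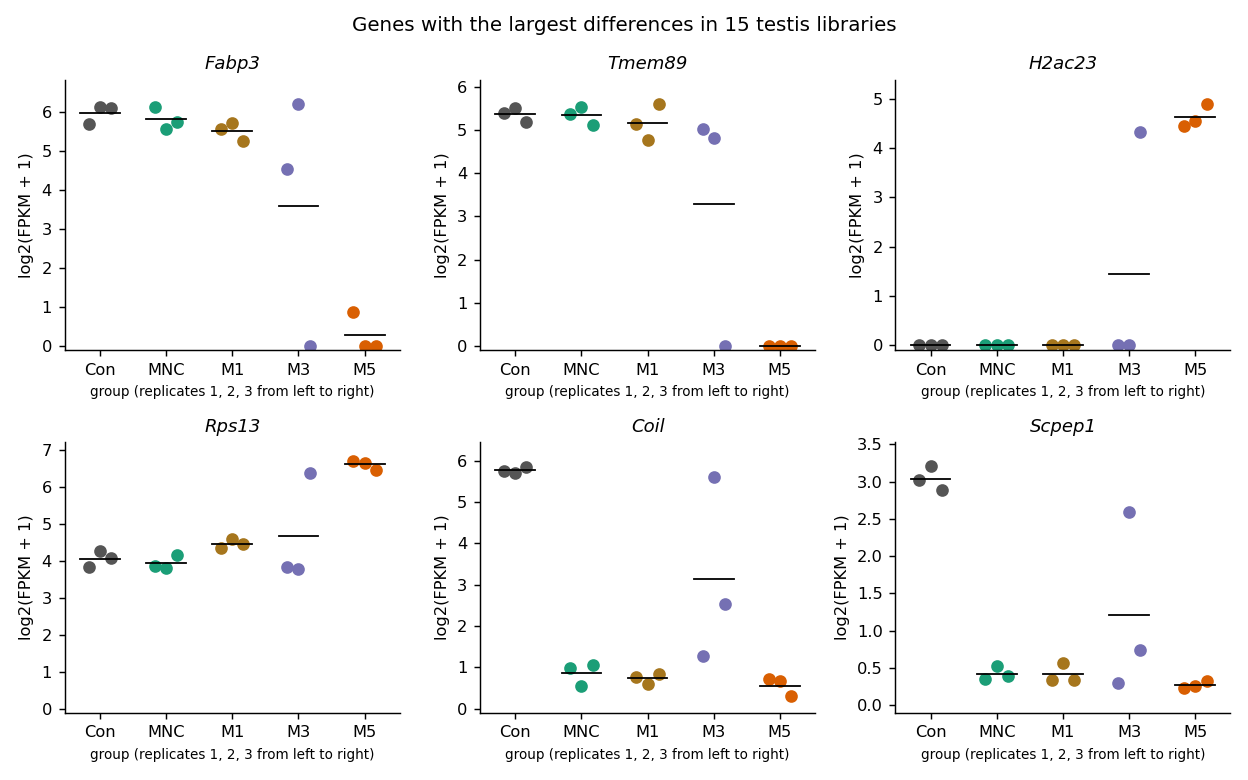
Level of 6 genes with large differences as log2(FPKM + 1) in the 15 testis libraries, with points for single libraries and a line for the group mean. Fabp3, Tmem89, H2ac23 and Rps13 separate the M5 libraries from Con, MNC and M1, M3 replicate 3 lies with M5 in these 4 panels, and Coil and Scpep1 are low in M5, MNC and M1.

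Among genes with a mean of 10 FPKM or more in both groups, those of the ribosome included several of the increases with the lowest p. Rps13, a protein of the small subunit, was at 13.2, 18.1 and 15.7 FPKM in Con and at 103, 99.1 and 87.1 FPKM in M5 (6.15-fold ratio of means, log2 difference 2.55, SE 0.12, limma adjusted p = 0.000244). MNC stayed at 13.0 to 16.7 FPKM, and M5 was called against it by 2.66 (adjusted p = 0.000416). Rpl35a rose from 27.1, 26.8 and 29.2 to 105, 113 and 106 FPKM (adjusted p = 4.35e-05), and MNC varied from 39.5 to 129 FPKM. Rpl23 rose from 83.3, 79.8 and 76.2 to 144, 151 and 153 FPKM, and Rps15a and Rpl21 rose by 0.72 and 0.76. Of 48 genes for cytosolic ribosomal proteins on a separate list, 12 were called higher and 3 lower (31.2%, against 21.7% of all genes), with a median of 0.11. Only 4 of the 48 were called without Con replicate 1, and 20 were called without M5 replicate 3. Between MNC and Con 0 were called higher by limma and 5 lower (4 and 8 at an unadjusted p under 0.05), and 10 were called higher and 0 lower between M5 and MNC (17 and 2 at an unadjusted p under 0.05). Rpl14 rose by 0.59 and Rpl38 by 0.52, while Rpl27 and Rps14 fell by 0.25 and 0.22. After centring on the median 12 of the 48 were called, all higher. Many ribosomal protein genes have processed pseudogenes that can share reads with them, and the uneven response within the list was not tested against this.

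Respiratory chain genes were called in both directions. Of the 36 tested, 2 were higher and 8 lower (27.8%, against 21.7% of all genes), with a median of -0.02. The number called was 3 without Con replicate 1 and 14 without M5 replicate 3. Between MNC and Con limma called 0 higher and 14 lower (1 and 21 at an unadjusted p under 0.05), and between M5 and MNC 6 higher and 0 lower (15 and 4 unadjusted). Cycs, the somatic cytochrome c, rose from 10.7, 11.4 and 10.04 to 18.4, 17.7 and 24.1 FPKM (log2 difference 0.84, adjusted p = 0.00819). The testis-specific cytochrome oxidase subunit genes Cox8c and Cox6b2 fell from 774, 835 and 812 to 595, 574 and 453 FPKM and from 272, 294 and 280 to 224, 195 and 208 FPKM (adjusted p = 0.0159 and 0.00928). Cox7c fell by 0.47. After centring 3 were called higher and 2 lower. Ndufa3, a subunit of complex I named for its low p, rose from 27.9, 25.9 and 31.0 to 63.5, 61.3 and 63.9 FPKM (adjusted p = 0.000813), with 25.8 to 32.2 FPKM in MNC.

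Of the germ cell lists, that of elongating spermatids had the largest median difference, 0.56. Of its 22 genes, 7 were called higher and 1 lower (36.4%, against 21.7% of all genes and 33.3% of the spermatocyte list). At an unadjusted limma p under 0.05, 18 were higher and 1 lower. Prm2, a protamine that packs sperm DNA, was at 3060, 1915 and 4656 FPKM in Con and at 8597, 9811 and 6929 FPKM in M5. The groups did not overlap, and Con was the more variable (2.63-fold ratio of means, log2 difference 1.47, SE 0.322, limma adjusted p = 0.0234). Prm3 rose from 186, 157 and 223 to 435, 495 and 362 FPKM (adjusted p = 0.00643). Smcp, a protein of the mitochondrial capsule of sperm, rose from 980, 827 and 1292 to 2169, 2311 and 1866 FPKM (adjusted p = 0.0107), and Car2, a carbonic anhydrase, rose by 1.14. Ldhc, the lactate dehydrogenase of the germ line, fell by 0.44, and the call of a lower gene was lost after centring. The summed level of the list was 24300, 18400 and 30500 FPKM in Con replicates 1, 2 and 3 and 37800, 41800 and 31100 FPKM in M5, so the highest Con and the lowest M5 library nearly met. The number called ranged from 2 without Con replicate 1 and 3 without M5 replicate 2 to 13 without Con replicate 3 and 15 without M5 replicate 3, with 4 without M5 replicate 1 and 6 without Con replicate 2. In MNC 13 of the 22 were called higher than in Con, with a median of 0.64, and 3 were called lower in M5 than in MNC.

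**Figure D4:**
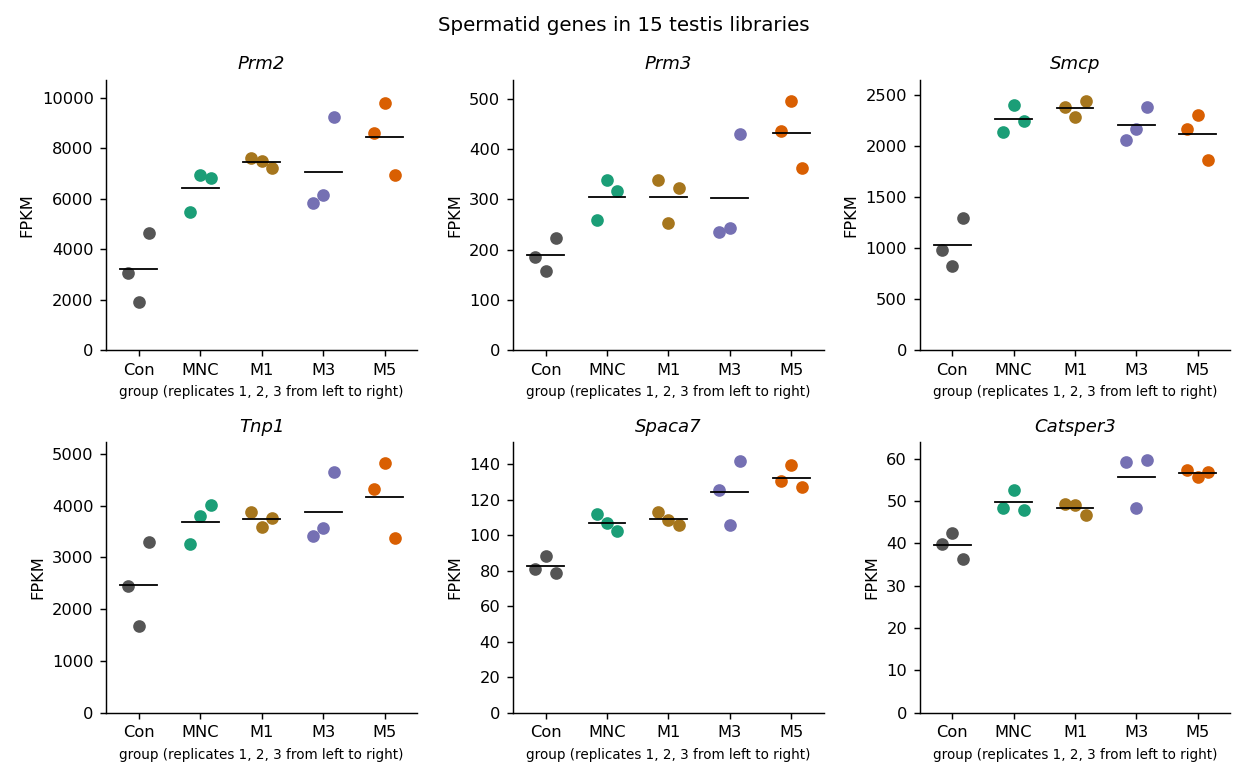
FPKM of 6 spermatid genes in the 15 testis libraries, with points for single libraries and a line for the group mean. The M5 libraries lie above the Con libraries in each panel, and so do those of the other virus groups except MNC replicate 1 for Tnp1, while the Con libraries, by ratio, differ among themselves most in Prm2 and Tnp1.

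Round spermatid genes were called at a share near that of all genes. Of 22 tested, 4 (18.2%, against 21.7% of all genes) were called, all higher, and the median was 0.07. Between MNC and Con 7 of the 22 were higher and 3 lower. Spaca7, an acrosome protein gene, rose from 80.9, 88.2 and 78.9 to 130, 139 and 127 FPKM (log2 difference 0.67, adjusted p = 0.00324), and Catsper3, a subunit of the sperm calcium channel, from 39.9, 42.5 and 36.4 to 57.4, 55.7 and 56.9 FPKM (adjusted p = 0.00633). Izumo1, needed for fusion of sperm and egg, rose by 0.25. The 24 spermatocyte genes had 4 called higher and 4 lower (33.3%) and a median of -0.11. None of the 24 was called by limma without Con replicate 1, 1 was called without M5 replicate 2 and 10 without M5 replicate 3. Between MNC and Con 1 was higher and 11 lower. Spo11, which makes the DNA breaks of meiotic recombination, fell from 31.4, 25.3 and 33.3 to 22.3, 19.4 and 17.4 FPKM (adjusted p = 0.0235), and H2ax, a histone that marks such breaks, fell by 0.51. Tex11 and Smc1b, a protein of the meiotic chromosome and a meiotic cohesin subunit, rose by 0.41 and 0.38. With the GC trend removed the spermatocyte genes were called 1 higher and 8 lower, and after centring 4 higher and 1 lower. Of 14 spermatogonial genes 2 were called (14.3%, against 21.7% of all genes), both lower. Uchl1, abundant in spermatogonia, fell from 33.4, 31.6 and 33.2 to 24.1, 21.6 and 29.1 FPKM, and Id4, a factor of spermatogonial stem cells, fell by 0.24, and each of these calls held in 1 of the 6 fits without 1 library.

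Of 5 genes whose proteins the study assayed, Sox9 as a Sertoli cell marker and the others for spermatogenesis, 1 was called (20.0%, against 21.7% of all genes). At an unadjusted limma p under 0.05, 3 were higher and 0 lower. Between MNC and Con limma called 0 of the 5, with 3 higher and 0 lower at an unadjusted p under 0.05. The median difference was 0.19 between MNC and Con and 0.17 between M5 and Con. Between M5 and MNC limma called 0 of the 5, also at an unadjusted p under 0.05. Pgk2, the phosphoglycerate kinase of spermatids, rose from 394, 336 and 443 to 580, 612 and 496 FPKM (log2 difference 0.53, SE 0.124, limma adjusted p = 0.0292), which held in 2 of the 6 fits without 1 library. Tnp1, a transition protein, was at 2443, 1666 and 3293 FPKM in Con and at 4322, 4813 and 3374 FPKM in M5 and missed the threshold (log2 difference 0.80, adjusted p = 0.0746). Crem, a transcription factor of spermatids, had a difference of 0.17 (adjusted p = 0.094), Sox9, of Sertoli cells, -0.15 (adjusted p = 0.65) and Fscn1, an actin-bundling protein, 0.00 (adjusted p = 0.995). The study assayed the Fscn1 protein in its phosphorylated form.

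A list of junction protein genes held beta-catenin, whereas the antibody of the study was against delta 1 catenin, encoded by Ctnnd1. Of the 7 genes of this list tested, limma called 0, with 1 higher and 1 lower at an unadjusted p under 0.05, and the median was -0.06. Gja1, the gap junction protein connexin 43, was at 22.1, 24.0 and 17.5 FPKM in Con and at 15.9, 13.6 and 16.6 FPKM in M5. Its groups did not overlap, but the difference of -0.43 missed the threshold (adjusted p = 0.0596). Cldn11, the main claudin of Sertoli cells, was at 60.4, 55.0 and 48.8 FPKM in Con and at 41.8, 48.7 and 73.5 FPKM in M5, with M5 on both sides of Con (log2 difference -0.04, adjusted p = 0.911). Tjp1, the scaffold ZO-1, had a difference of 0.17 (adjusted p = 0.119), Ctnnb1, beta-catenin, -0.12, Ocln, occludin, -0.31, and F11r, the adhesion molecule JAM-A, 0.00. Cdh1, E-cadherin, lay below the filter, at 0.503 FPKM in Con and 0.317 FPKM in M5 on average (exact permutation test, two-sided, p = 0.2, n = 3 each). Ctnnd1, the gene of delta 1 catenin (p120), was called lower, from 22.5, 23.4 and 22.8 FPKM in Con to 14.9, 15.9 and 19.8 FPKM in M5 (log2 difference -0.43, adjusted p = 0.0332). It stood on a list of 25 other junction genes, of which 2 (8.0%, against 21.7% of all genes) were called, the other being Cdh2, N-cadherin, lower by 0.42. Each of these calls held in 1 of the 6 fits without 1 library. Between MNC and Con limma called 3 of the 7 lower with a median of -0.33. Of the 25 it called 6 lower with a median of -0.205, and 0 were called higher in either list (0 of the 7 and 4 of the 25 at an unadjusted p under 0.05). Between M5 and MNC limma called 0 in either list. At an unadjusted p under 0.05, these were 0 of the 7, and 3 higher and 1 lower of the 25. Phldb2, a cortical protein, was below the filter, at 0.89, 1.11 and 1.05 FPKM in Con and 1.31, 0.95 and 1.72 FPKM in M5. Limma called 0 of 13 of its cortical partners, with 1 higher and 1 lower at an unadjusted p under 0.05.

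Somatic cells of the testis differed little as groups, and M5 replicate 3 stood apart. Of 23 Sertoli cell genes tested 1 was called (4.35%, against 21.7% of all genes). It was Inha, the inhibin alpha subunit, which fell from 101, 103 and 85.5 to 34.3, 37.8 and 65.9 FPKM (log2 difference -1.11, adjusted p = 0.0215). Clu, a secreted chaperone of Sertoli cells, was at 467, 463 and 406 FPKM in Con and at 293, 331 and 552 FPKM in M5, so that M5 lay on both sides of Con (adjusted p = 0.498). The summed level of the Sertoli list was 1230 to 1380 FPKM in Con, 1080 and 1130 FPKM in M5 replicates 1 and 2, and 1680 FPKM in M5 replicate 3. Without M5 replicate 3, 8 of the 23 genes were called and the median was -0.34 in place of -0.15. The summed Leydig cell list was 1730 to 2210 FPKM in Con, 1960 and 1690 FPKM in M5 replicates 1 and 2 and 3410 FPKM in replicate 3. Of its 18 genes 1 was called (5.56%). This gene was Hsd17b3, the last enzyme of testosterone synthesis (17.6, 24.8 and 22.5 FPKM in Con, 36.9, 28.7 and 52.7 FPKM in M5, limma adjusted p = 0.0471). Insl3, the Leydig cell hormone, was at 993, 1328 and 1052 FPKM in Con and 1275, 1117 and 2382 FPKM in M5 (adjusted p = 0.327). Matrix and collagen genes were at 382 to 450 FPKM in Con and at 357, 334 and 617 FPKM in M5, and limma called 0 of 23, with 1 higher and 1 lower at an unadjusted p under 0.05. Without M5 replicate 3 the median was 0.86 for interferon response, 0.87 for class I and 1.56 for class II genes. The part of the somatic cell share in the immune differences was not tested. Between MNC and Con, 0 Sertoli genes were called higher by limma and 4 lower (0 and 9 at an unadjusted p under 0.05), 1 Leydig gene was higher and 1 lower, and 0 matrix genes were higher and 2 lower (1 and 6 unadjusted).

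Cholesterol synthesis and cell cycle genes were called at shares near or below the 21.7% of all genes, among which lower calls (12.3%) also outnumbered higher ones (9.32%). Of the 21 cholesterol genes 4 were lower and 1 higher (23.8%), and between MNC and Con 2 were lower and 1 higher. Idi1, the isomerase that makes dimethylallyl diphosphate, fell from 24.3, 34.4 and 30.2 to 14.0, 13.8 and 14.3 FPKM (log2 difference -1.01, SE 0.122, adjusted p = 0.00549), Mvk and Sc5d fell by 0.50 and 0.44, and Pmvk rose by 0.60. Of 20 cell cycle genes 3 were called, all lower, against 5 lower and 0 higher by limma between MNC and Con (11 and 0 at an unadjusted p under 0.05). These were Rrm1, a subunit of ribonucleotide reductase (35.5, 38.2 and 35.3 FPKM in Con, 27.8, 28.2 and 25.5 FPKM in M5; adjusted p = 0.0095), Aurka, a mitotic kinase, and Cdk1, which differed by -0.41 and -0.24. After centring 0 of the 20 passed the limma threshold, and 2 were higher and 6 lower at an unadjusted p under 0.05 as measured. Of 17 p53 target and cell death genes 11.8% were called. Of these, 1 rose, Mlkl, the effector of necroptosis, from 3.82, 2.77 and 4.29 to 6.79, 7.77 and 6.42 FPKM (limma adjusted p = 0.0144), and 1 fell, Bcl2l1, by 0.27. Among 12 immediate early and stress genes 2 were called (16.7%), both lower. Jund, a subunit of the transcription factor AP-1, fell from 37.8, 34.0 and 33.4 to 16.5, 18.6 and 24.98 FPKM (limma adjusted p = 0.0141). Ddit3, a factor of the unfolded protein response, fell by 0.30.

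Among genes with a mean of 10 FPKM or more in both groups, the decreases with the lowest p were moderate in size. They lay in genes of varied function. This minimum leaves out genes that fell to near 0, such as Tmem89 and Coil, which had lower adjusted p. Ppp1r35, a centriole protein gene, was at 37.0, 36.9 and 35.9 FPKM in Con and at 19.1, 18.98 and 19.4 FPKM in M5 (1.91-fold lower by the ratio of means, log2 difference -0.90, SE 0.051, limma adjusted p = 0.000528). Mapk15, an atypical mitogen-activated kinase, fell from 37.3, 35.4 and 38.5 to 19.5, 20.2 and 20.6 FPKM (adjusted p = 0.00105). In both genes the libraries of a group lay within a few FPKM of each other, and MNC was between M5 and Con. Cpsf4, of the complex that cleaves pre-mRNA before polyadenylation, fell by 0.81, Lancl1, a glutathione-binding protein, by 0.73, Mark2, a kinase of cell polarity, by 0.71, Zer1, a substrate receptor of a ubiquitin ligase, by 0.70, Dvl1, a mediator of Wnt signals, by 0.63, and Nkiras2, a regulator of NF-kappa B, by 0.61. For Lancl1 the difference lay between M5 and both controls, with 46.9, 47.4 and 45.9 FPKM in Con, 43.2, 43.7 and 46.2 FPKM in MNC and 26.8, 27.2 and 29.6 FPKM in M5 (log2 difference of M5 from MNC -0.65, adjusted p = 0.00981). These 8 genes stayed called in each of the 17 alternative fits. None of them passed the study's threshold, which asks for a log2 difference of 1.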

How the data were processed

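The authors sequenced poly(A) RNA on a HiSeq instrument, mapped reads with SOAPaligner and deposited 1 table of FPKM values. The labels name mm10, and the annotation is not given in the sources used here. The methods name RPKM, the columns FPKM. Groups came from sample titles. In the labels, M5-2 is described with the column heading that belongs to M5-1, and the title decided. Titles say testis, extraction text sperm. Nothing says that replicates are separate animals, so p-values measure the spread between libraries.

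Of 23510 IDs, 21143 (89.9%) matched RefSeq symbols (GRCm38.p6), 2208 are BGI_novel and 159 had no match. Read counts were not used here and absolute depth is unknown. Steps between low FPKM values gave all 6 libraries the same relative depth of 1.0, from 15 to 26 genes each. Summed FPKM was 470243 to 483232 in Con and 496090 to 510049 in M5.

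Genes with mean FPKM of 1 or more over 15 libraries were tested as log2(FPKM + 1), which understates changes of low genes, with limma 3.58.1 (lmFit, eBayes with trend; R 4.3.3) on the 2 groups compared, Benjamini-Hochberg adjustment over the 14514 genes and a threshold of 0.05, two-sided. The study's own count test (FDR of 0.001 and log2 of 1) was replaced, since no counts were used. In 5 simulated sets of M5 against Con (14514 genes, 200 changed by 1 log2), 75.3% of changed genes were called, 100% with the right sign, and 4.56% of calls were false. Noise in these sets was drawn independently for each gene and library, so the 4.56% does not measure the false share of the real calls. Muscarinic receptors, Ifng, Ifnb1 and Cdh1 below the filter had exact permutation tests. The 17 alternative fits used a pseudocount of 0.1, filters of 0.1, 5 and none, centring, quantile normalization or GC removal (GC known for 92.1%). The rest used no trend, all 5 groups, replicate block with and without GC removal, or left out each library. The study's threshold was applied apart from these.

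Members and the 33 lists were chosen with earlier results of these data known. Named genes are the 10 largest differences up and down among called genes without overlap, the 8 lowest p up and down at a mean of 10 FPKM or more in both groups, up to 4 called members per list (or the 2 highest if fewer than 2 were called), 2 lists drawn up for proteins the study assayed (with Ctnnb1 for the catenin), Chrm1 to Chrm5, Phldb2 and up to 4 IDs without a symbol. Other members were named after their values were seen. Further tools were numpy 2.4.6, pandas 2.3.3 and Python 3.11.15.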

Additional observations from a re-analysis of the deposited data

How the results depend on the processing

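The 3143 calls between M5 and Con stayed within 1.5 times for another pseudocount, filter, normalization or moderation of the variance. The count ranged from 708 to 5263 when 1 library was left out and was 32 at the study's own threshold. For MNC against Con (2967) it was 8 to 2497 with 1 library left out, 1869 centred on the median, 1900 with no filter and 2 at the study's threshold. For M5 against MNC (820) it was 35 to 946 with 1 library left out, 247 with the GC trend removed, 2424 with all 5 groups in one fit, 182 centred, 215 without the trend in eBayes, 479 with no filter and 6 at the study's threshold. Causes of these shifts were not tested. Same-numbered libraries of M5 and Con had correlations of their deviations of -0.02, -0.21 and -0.19, and libraries of differing numbers -0.02 to 0.24. Deviations of 3 libraries from their own group mean depend on one another, so these values cannot decide whether the numbers pair the libraries. With the replicate block, 573 genes were called between M5 and Con (390 with the GC trend also removed), 10 between MNC and Con (2310 with the GC trend also removed), and 14 between M5 and MNC (5 with the GC trend also removed). None of the 136 named genes tested turned its direction in a called result under the 17 alternative fits, and of the 111 called, 54 lost the call without Con replicate 1, 15 after centring and 2 with the other pseudocount. Centring shifts each difference between M5 and Con upward by about 0.05, and the call of Pgk2 was lost there. With no read counts used, depth limits are unknown, and the 2 decimals of FPKM bound genes below 0.1 FPKM such as Chrm2.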

Other observations

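The genes named for the largest differences or the lowest p between M5 and Con were also read in the 9 libraries that this comparison did not use. Of these 36 genes, M3 replicate 3 was nearer to the M5 mean than to the Con mean on the log2(FPKM + 1) scale in 29. M3 replicates 1 and 2 were nearer to M5 in 10 each, the M1 libraries in 16, 19 and 13, and the MNC libraries in 16, 17 and 13. The genes in question included those that were present in one group and absent in the other. Fabp3 and Tmem89 were listed at 0 in M3 replicate 3 and were at 22.4 and 72.6 FPKM and at 31.8 and 27.3 FPKM in M3 replicates 1 and 2. H2ac23 was at 19.1 FPKM in M3 replicate 3 and listed at 0 in the other 2 M3 libraries. Rps13 was at 81.8 FPKM in M3 replicate 3 against 13.2 and 12.7 FPKM in the others, Rpl23 at 138 FPKM against 73.8 and 72.4 FPKM, and Lancl1 at 31.0 FPKM against 48.4 and 47.1 FPKM. M3 replicate 2 was the library without Con label in which Coil (47.6 FPKM) and Scpep1 (5.06 FPKM) were near the level of Con. These patterns were noticed after the values were seen, and the relation between these libraries was not tested.

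Next to Atp6v1e1 on chromosome 6, Bcl2l13 had the opposite direction, with 0.0467 FPKM in Con and 3.20 FPKM in M5 on average (log2 difference 1.56, limma adjusted p = 0.148). Beside Ccl8, the chemokine gene Ccl12 was higher in M5 (0.35 and 4.54 FPKM in Con and M5, limma adjusted p = 0.0349), and beside Ly6a, a surface antigen gene, Ly6e, Ly6c1 and Ly6c2 were higher by 1.10, 1.42 and 1.91. Adipoq, of fat cells, rose from 8.54, 6.71 and 7.52 to 13.1, 13.4 and 11.3 FPKM (limma adjusted p = 0.0103). It was the only gene called of the 7 fat cell genes tested (14.3%, against 21.7% of all genes). Of the 7, 5 had a positive and 2 a negative difference, with a median of 0.34. The summed level of this list overlapped between M5 and Con.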
